A study of Mus musculus with 26 samples.

Results

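RNA of NIH3T3 cells heated at 42 °C for 8 h was compared directly with RNA of the same cells heated at 44 °C for 2 h. NIH3T3 is an established line of mouse embryonic fibroblasts, and no allele, transgene or drug is named for these groups, so the line and the selection of polyadenylated RNA are what all of them share. The comparison used 4 of the 26 libraries of the study, chosen by their labels, with 2 replicates per treatment. 2 more RNA libraries, labelled as the control for the heat experiment, served only to tell which treatment had moved away from the control level. The whole series held 16 RNA and 10 ribosome footprint libraries in 13 groups of 2, and its title asks how stress makes transcription run past the end of a gene into the next. Temperature and time change together between the treatments, so the effects of the degree of heat and of its length cannot be told apart. The labels name neither the temperature of the control nor a recovery before harvest.

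Heat unfolds proteins, and cells answer through heat shock factors, above all HSF1, which binds heat shock elements in promoters and switches on genes of molecular chaperones. HSP70 chaperones refold clients with the help of HSP40 (DNAJ) proteins, which deliver the client, and of BAG and HSP110 proteins, which release the nucleotide. HSP90 matures signalling proteins with its own co-chaperones, and small heat shock proteins hold unfolded clients until HSP70 takes over. The response is known to be transient, since HSF1 is shut down as chaperones accumulate. In fibroblasts, heat also disturbs the actin cytoskeleton, splicing, translation and growth.

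The libraries held 30452066 to 42698179 expected counts. Replicates of each group correlated with r of 0.995 across genes (log2 CPM), a chi-square of 3.16 to 6.57 per gene set every pair above counting noise, and none were identical. The labels do not say whether replicates were separate cultures, so p-values measure the spread between these libraries, which may be technical. Fibroblast markers were present: all 10 of 10 were tested, with summed levels of 15775 to 15962 CPM at 44 °C, 20840 to 21425 CPM at 42 °C and 21119 to 21518 CPM in the control. Between the treatments 6 were called higher and 4 lower at 42 °C, and the part of these shifts in the results was not tested. Decorin (Dcn) was low among them, at 0.257 to 3.67 CPM. Markers of other cell types were low everywhere, with summed levels of at most 11.5 CPM (epithelial), 5.58 CPM (leukocyte), 4.58 CPM (endothelial), 16.7 CPM (neuronal) and 3.12 CPM (muscle). In RNA of a whole culture, fewer cells of a kind and less RNA per cell cannot be told apart.

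Levels are given as CPM, counts scaled to a common library size after TMM normalization, which scales libraries so that most genes keep their level. CPM is not divided by gene length, so it compares a gene with itself across libraries and not with other genes. A gene is called where the edgeR quasi-likelihood test gave a Benjamini-Hochberg adjusted p under 0.05. Of 12747 genes tested, 9572 (75.1%) were called between the treatments, 4829 (37.9%) higher and 4743 (37.2%) lower at 42 °C for 8 h. A difference of at least 2-fold was met by 1915 genes (15.0%), 647 of them (5.08%) higher at 42 °C and 1268 (9.95%) higher at 44 °C. The balance depended on scaling: 50.4% of all calls were higher at 42 °C with TMM, 34.4% (3331 against 6354) with library totals alone, and 28.9% (2764 against 6798) on log2(TPM + 1). At 2-fold the share was 33.8% with TMM, 20.7% (445 against 1705) with totals and 17.8% (221 against 1024) on TPM. The median log2 difference of all genes was -0.00039 with TMM, -0.18 with totals and -0.20 on TPM, and gene groups below are read relative to that median. Counts of calls in gene groups are to be set beside the shares of all genes given here. The plot of differences against expression shows the 2-fold genes on both sides at every level above the lowest.

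**Figure D1:**
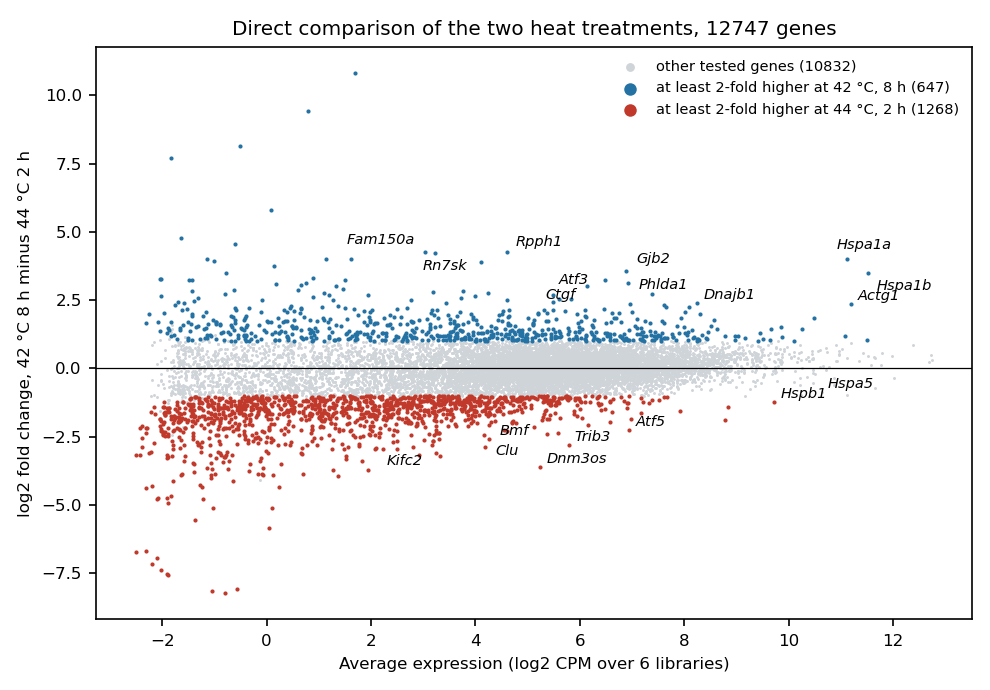
Each of 12747 tested genes by its average expression (x axis, log2 CPM over 6 libraries) and its difference between treatments (y axis, log2 fold change of 42 °C for 8 h minus 44 °C for 2 h). Blue points are the 647 genes at least 2-fold higher at 42 °C, red points the 1268 at least 2-fold higher at 44 °C, and grey points the rest. The HSP70 genes Hspa1a and Hspa1b lie apart at high expression, while points beyond 5 on either side are genes of very low level.

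The control libraries told which treatment had left the control level at least 2-fold, with a called difference. Of the 1915 genes, 725 (37.9%) had left it at 44 °C alone, 437 of them above and 288 below the control. At 42 °C alone 435 genes (22.7%) had left it, 106 above and 329 below. Both treatments had left it in the same direction for 77 genes (4.02%), and here 31 genes were up and further from the control at 42 °C, 29 were up and further at 44 °C, and 17 were down. For 48 genes (2.51%) the treatments lay on opposite sides of the control, 13 with the higher level at 42 °C and 35 at 44 °C. For the other 630 (32.9%) neither treatment differed from the control by a called difference of at least 2-fold. Against the control 71.0% of the genes tested were called at 44 °C (35.4% higher, 35.7% lower) and 63.6% at 42 °C (31.7% higher, 31.9% lower). At least 2-fold, 11.0% were called at least 2-fold against the control at 44 °C (6.09% higher, 4.88% lower) and 7.92% at 42 °C (2.82% higher, 5.1% lower). Both sides of each class use the same 2 control libraries, so the classes describe these genes and carry no test of their own. The bar chart of these classes shows rises above the control as the larger part at 44 °C alone and falls below it as the larger part at 42 °C alone.

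**Figure D2:**
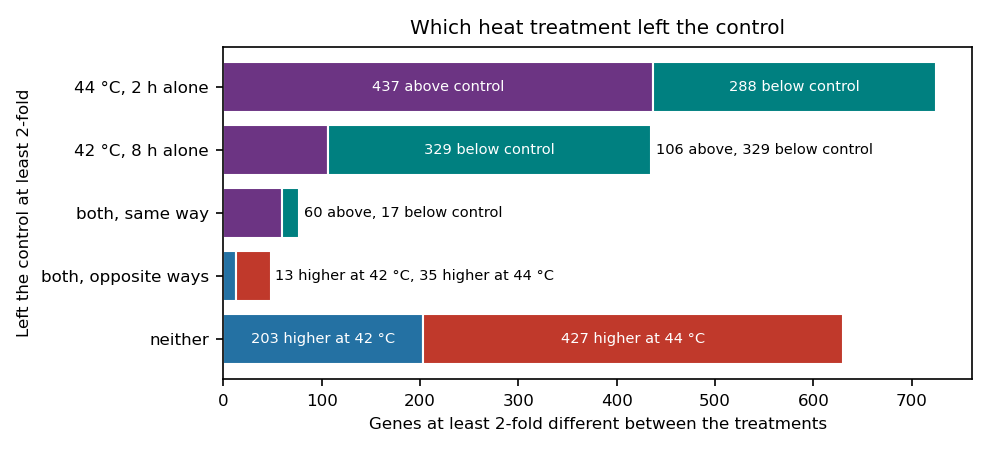
Number of genes at least 2-fold different between the treatments (x axis), by which treatment had left the control at least 2-fold (y axis). Purple and green parts lie above and below the control. Blue and red parts are higher at 42 °C and at 44 °C. Of the 725 genes that left it at 44 °C alone 437 lay above, against 106 of 435 at 42 °C alone.

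The inducible HSP70 genes Hspa1a and Hspa1b and the HSP40 genes Dnajb1, Dnajb4 and Dnaja4 were more than 2-fold higher after 42 °C for 8 h, while Hspb1 and Hsp90aa1 were higher after 44 °C for 2 h. Promoter sequences of Hspa1a and Hspb1 are shown because both are classic HSF1 targets that the treatments ordered in opposite ways. They are the 250 bases before the annotated start in RefSeq (GRCm38.p6), and capitals mark matches to GAANNTTC or TTCNNGAA, an inverted pair of the heat shock element unit, read on both strands. Hspa1a lies on the minus strand, at chr17:34972157-34972406, with 1 match that starts 104 bases before the start, and Hspb1 on the plus strand, at chr5:135887669-135887918, with 2 matches that start 117 and 97 bases before it. Hspb1 was chosen after its values were seen.

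Hspa1a: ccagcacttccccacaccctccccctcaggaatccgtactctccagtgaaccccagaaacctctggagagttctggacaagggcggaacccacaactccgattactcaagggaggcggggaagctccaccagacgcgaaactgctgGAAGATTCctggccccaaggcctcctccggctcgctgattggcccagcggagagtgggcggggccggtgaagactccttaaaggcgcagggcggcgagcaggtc
Hspb1: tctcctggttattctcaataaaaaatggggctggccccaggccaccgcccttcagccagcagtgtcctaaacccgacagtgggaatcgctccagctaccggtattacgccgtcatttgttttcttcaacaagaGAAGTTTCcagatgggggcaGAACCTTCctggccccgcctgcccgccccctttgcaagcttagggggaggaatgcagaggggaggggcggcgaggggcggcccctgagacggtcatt

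Such a pair stood in the 250 bases before the start in 12.8% of all 32851 promoter windows, and in 14.5% of 27025 genes. Among genes tested here it stood in 9.88% of windows and 11.9% of genes. In the HSP70 and HSP110 list it stood in the windows of 3 of 10 genes found there (Hspa1a, Hspa1b and Hsph1). In the small heat shock protein list it stood in 3 of 7 (Hspb1, Hspb6 and Hspb3, which did not pass the filter on low counts). It stood in 4 of 16 genes of the HSP40 and BAG list, in 3 of 14 of the HSP90 list and in 2 of 10 mitochondrial chaperones (Hspd1 and Hspe1). A stricter triple, the same pair with 1 more inverted unit at the same spacing, stood in 0.514% of all genes and 0.457% of those tested. In these lists it stood in 0 of 10, 0 of 7, 1 of 16 (Dnajb6), 0 of 14 and 2 of 10 (Hspd1 and Hspe1), in the same order. A match is a description of letters and not a binding site.

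Hspa1a, a stress-inducible HSP70, stood at 331 and 448 CPM at 44 °C, at 6403 and 6027 CPM at 42 °C and at 34.4 and 49.0 CPM in the control. The 42 °C libraries were thus 16-fold higher, a log2 difference of 4.0 (SE 0.14, adjusted p 8.8e-12). Its neighbour and near-identical copy Hspa1b stood at 636 and 794 CPM at 44 °C, 8084 and 7979 CPM at 42 °C and 82.5 and 107 CPM in the control, 11.2-fold higher at 42 °C. Reads may be divided between these copies with error, and both genes were picked among the large differences without overlap between the treatments. Hspa8, the HSP70 made in unstressed cells, differed far less, at 3267 and 3165 CPM at 44 °C against 4248 and 4113 CPM at 42 °C (log2 difference 0.38, SE 0.04, adjusted p 8.3e-07). Hspa2, a testis-rich HSP70, went the other way, at 29.7 and 31.9 CPM against 15.5 and 14 CPM.

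Of the HSP40 and BAG list, Dnajb1, the main HSP40 partner of inducible HSP70, stood at 132 and 139.7 CPM at 44 °C, at 710.1 and 700.3 CPM at 42 °C and at 70.9 and 75.3 CPM in the control. It was 5.20-fold higher at 42 °C (log2 difference 2.38, SE 0.05, adjusted p 9.7e-14) and had left the control 2-fold at 42 °C alone. Dnajb4, another HSP40, behaved alike, with 56.7 and 57.8 CPM at 44 °C, near the control (49.4 and 49.4 CPM), and 207 and 203 CPM at 42 °C. Bag3, which links HSP70 to autophagy, stood at 99.5 and 106 CPM at 44 °C, 242 and 254 CPM at 42 °C and 58.2 and 63.8 CPM in the control. Dnaja4 stood at 24.1 and 25.8 CPM, 56.5 and 59.4 CPM, and 12.7 and 13.7 CPM in that order. All 4 genes were also called higher than the control at 44 °C, by log2 0.89 (Dnajb1), 0.21 (Dnajb4), 0.75 (Bag3) and 0.92 (Dnaja4). In these 4 genes, picked for the size of their difference, no 44 °C library reached a 42 °C library.

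Hspb1, the small heat shock protein HSP27, stood at 1644 and 1836 CPM at 44 °C, at 724 and 753 CPM at 42 °C and at 43.4 and 50.9 CPM in the control. It had left the control in both treatments and was 2.36-fold higher at 44 °C (log2 difference -1.24, SE 0.06, adjusted p 3.6e-10). Cryab, another small heat shock protein, stood at 28.9 and 31.9 CPM at 44 °C, and its 42 °C libraries, at 15.3 and 16.1 CPM, lay just above the control (10.9 and 14.6 CPM). Hspb8, a small heat shock protein that works with Bag3, was higher at 42 °C instead, at 92.2 and 98.7 CPM against 63.4 and 64.9 CPM. Hsp90aa1, the inducible HSP90, stood at 5217 and 5412 CPM at 44 °C, at 3285 and 3224 CPM at 42 °C and at 1145 and 1112 CPM in the control, 1.63-fold higher at 44 °C (log2 difference -0.71, SE 0.04, adjusted p 1.3e-09). Its co-chaperone Fkbp4 followed, at 529.8 and 566 CPM against 321 and 324 CPM. Hsph1, an HSP110, differed only slightly, at 1153 and 1293 CPM against 1059 and 1086 CPM, although it stood at 150.1 and 159 CPM in the control. Hspd1, the mitochondrial chaperonin HSP60, was not called between the treatments (1087 and 1111 CPM against 1089.9 and 1049 CPM, log2 difference -0.04, SE 0.04) and had more than doubled over the control (407 and 403 CPM) in both. Its partner Hspe1 was 1.49-fold higher at 44 °C, at 261 and 283 CPM against 185 and 178 CPM.

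**Figure D3:**
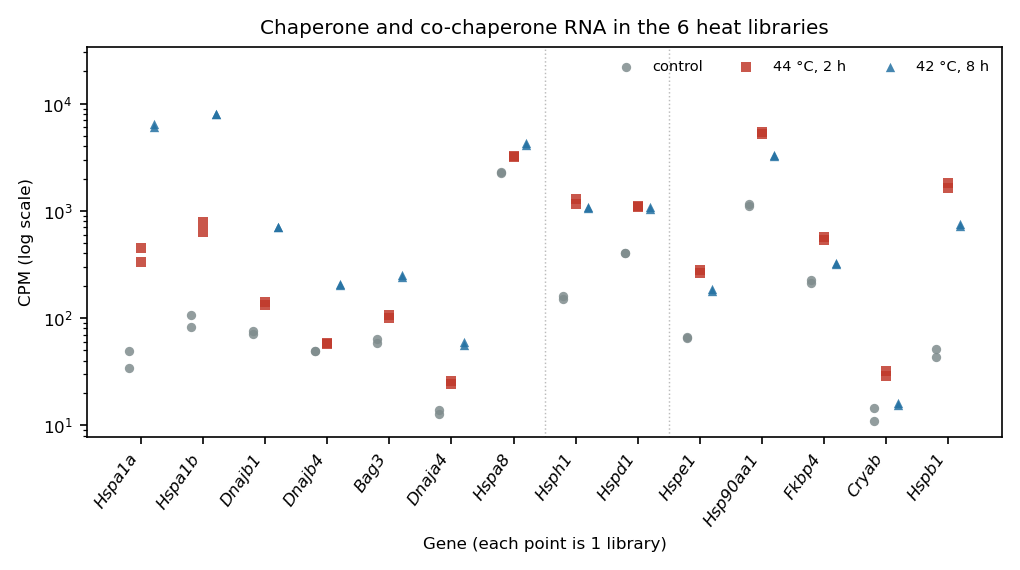
CPM (y axis, log scale) of 14 chaperone and co-chaperone genes (x axis) in the 6 heat libraries. Grey circles are the control, red squares 44 °C for 2 h and blue triangles 42 °C for 8 h, 1 point per library. Left of the first dotted line genes are higher at 42 °C (Hspa1a at 6403 and 6027 CPM against 331 and 448), between the lines the treatments lie close, and right of the second genes are higher at 44 °C (Hspb1 at 1644 and 1836 CPM against 724 and 753).

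The plot of chaperone levels orders the genes from those higher at 42 °C to those higher at 44 °C. Pooled over the lists the chaperones did not lean one way, while the single lists differed from each other. Over the 67 tested members of the 5 heat shock protein lists, 30 were called higher and 25 lower at 42 °C, against 37.9% and 37.2% of all genes, and 7 and 4 past 2-fold. Their median log2 difference of 0.07 was smaller than the shift that scaling by totals brings to all genes. Of the 12 HSP70 and HSP110 genes 5 were higher and 5 lower (5 and 7 with library totals, 4 and 7 on TPM), with a median of -0.11. Of the 20 HSP40 and BAG genes 14 were higher and 5 lower (9 and 5, and 9 and 7), with a median of 0.27. Of the 17 genes of HSP90 and its co-chaperones 4 were higher and 8 lower (4 and 12, and 3 and 13). Of the 13 mitochondrial chaperones and proteases 5 were higher and 4 lower (1 and 8, and 1 and 9). Of 9 small heat shock proteins 5 passed the filter, 2 of them higher and 3 lower (1 and 3 with totals and on TPM).

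All 8 subunits of CCT, the chaperonin that folds actin and tubulin, were called higher at 42 °C, by log2 0.30 (Cct8) to 0.55 (Cct7), with a median of 0.45; on TPM 6 of 8 were called. Cct7 stood at 289 and 288 CPM at 44 °C, at 446 and 399.5 CPM at 42 °C and at 299 and 299 CPM in the control, so that it was the 42 °C libraries that stood above the rest. Ubb, whose product tags proteins for destruction, was also higher at 42 °C, at 763 and 804 CPM against 1221 and 1205 CPM. Of 41 tested proteasome subunits 36 were higher and 0 lower (29 and 4 with totals, 25 and 5 on TPM), with a median of 0.41. Psmd8, a lid subunit, went furthest, at 109 and 109.8 CPM against 258 and 246 CPM, with the control between them. Psme4, the PA200 activator, stood at 110.3 and 103 CPM against 213 and 212 CPM.

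The heat shock factors themselves hardly differed. Hsf1 stood at 97.4 and 108 CPM at 44 °C, at 94.8 and 92.7 CPM at 42 °C and at 70.9 and 73.6 CPM in the control. Its log2 difference of -0.13 (SE 0.05, adjusted p 0.034) was small and lost its call in DESeq2 and without either 42 °C library, 44 °C replicate 2 or control replicate 1. Hsf2 was not called with TMM (log2 0.01), at 42.8 and 40.0 CPM against 42.4 and 40.8 CPM. With totals (-0.18) and on TPM (-0.23) it was called lower at 42 °C, with medians of all genes at -0.18 and -0.20. Of 4 tested genes of heat shock factors and their regulators, 1 was called lower with TMM and 4 with totals and on TPM.

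ER chaperones and the genes of the unfolded protein response, which relieves the endoplasmic reticulum when secretory proteins misfold, were lower at 42 °C throughout. All 21 members tested were called lower (22 listed), and 0 higher, with TMM, with totals and on TPM, with a median log2 difference of -0.52. Against the control the median was 0.42 at 44 °C and -0.05 at 42 °C. Hspa5, the HSP70 of the ER (BiP), stood at 2214 and 2236 CPM at 44 °C, at 1195 and 1225 CPM at 42 °C and at 1356 and 1286 CPM in the control, 1.84-fold higher at 44 °C (log2 difference -0.88, SE 0.04, adjusted p 1.9e-10). Syvn1, the ubiquitin ligase HRD1 of ER-associated degradation, stood at 114 and 121 CPM at 44 °C, 45.2 and 47.2 CPM at 42 °C and 80.2 and 83.1 CPM in the control. Dnajb9, an ER HSP40 that holds the sensor IRE1 inactive, stood at 30.7 and 29.8 CPM, 12.8 and 12.8 CPM, and 19.8 and 17.6 CPM in the same order. The control thus lay between the treatments for both. Herpud1, also of ER-associated degradation, stood below the control in both treatments, at 67.4 and 74.3 CPM at 44 °C and 29.2 and 30.6 CPM at 42 °C, against 93.7 and 92.3 CPM.

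Genes of the integrated stress response, in which the factor ATF4 raises genes of amino acid supply, lay mostly below the control in both treatments. Of 19 genes 13 were called lower than the control and 3 higher at 44 °C (median -0.41), and 16 and 3 at 42 °C (median -0.94). Of all genes 35.7% were called lower at 44 °C and 31.9% at 42 °C. Between the treatments 6 were higher and 11 lower at 42 °C (5 and 13 with totals, 4 and 14 on TPM). The median was -0.45, and 6 were past 2-fold lower. Trib3, a pseudokinase that ATF4 induces, stood at 64.2 and 67.2 CPM at 44 °C, at 9.75 and 9.10 CPM at 42 °C and at 93.8 and 80.2 CPM in the control, 6.95-fold lower at 42 °C (log2 difference -2.80, SE 0.09, adjusted p 2.8e-12). Atf5, a factor of the same family as ATF4, stood at 184 and 188 CPM, 37.2 and 40.2 CPM, and 139.7 and 145 CPM in that order, and Sesn2, a brake on mTORC1, at 50.4 and 58.3 CPM, 14.8 and 15.3 CPM, and 54.8 and 51.8 CPM. For all 3 the 44 °C libraries lay within 2-fold of the control and the 42 °C libraries far below it. Ddit3, which encodes CHOP, did the same (48.7 and 57.6 CPM, 14.2 and 17.4 CPM, and 49.8 and 43.2 CPM). The stress-inducible factor Atf3 stood apart from them, at 22.9 and 26.8 CPM at 44 °C, at 233 and 235 CPM at 42 °C and at 12.8 and 12.5 CPM in the control, 9.44-fold higher at 42 °C (log2 difference 3.24, SE 0.06, adjusted p 7.8e-14). Atf4 itself was slightly higher at 42 °C, at 321 and 308 CPM against 248 and 256 CPM, and below the control (436 and 415 CPM) in both.

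Of 16 p53 targets 5 were higher and 9 lower at 42 °C (3 and 10 with totals and on TPM), with a median of -0.18. Over all genes 37.9% were called higher and 37.2% lower with TMM. The cell cycle inhibitor Cdkn1a (p21) stood at 84.5 and 91.6 CPM at 44 °C, 26.2 and 29.2 CPM at 42 °C and 60 and 60.8 CPM in the control, 3.19-fold lower at 42 °C. Trp53inp1, which promotes p53 activity, stood at 41.0 and 41.9 CPM against 10.6 and 11.1 CPM. Plk2, a kinase of the centrosome cycle, was the exception in size, at 53.9 and 60.4 CPM at 44 °C and 241 and 237 CPM at 42 °C. Of 8 NRF2 targets, the antioxidant genes, 4 were higher and 3 lower (0 and 4 with totals and on TPM). Gclc, the catalytic subunit of glutathione synthesis, was 64.8 and 67.1 CPM at 44 °C, 33.0 and 32.3 CPM at 42 °C and 26.1 and 26.3 CPM in the control. Slc7a11, which imports cystine, was 13.9 and 14.9 CPM, 4.49 and 5.08 CPM, and 58.2 and 48.2 CPM in that order. Hmox1, heme oxygenase, was 104 and 109 CPM at 44 °C and 72.3 and 80.4 CPM at 42 °C.

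Actin cytoskeleton genes that the serum response factor SRF controls together with its actin-sensing partner MRTF were lower at 44 °C and mostly higher at 42 °C than in the control. All 16 genes of the list were called higher at 42 °C with TMM, with totals and on TPM, 14 of them at least 2-fold, with a median log2 difference of 1.61. Against the control all 16 were called lower at 44 °C (median -1.04) and 14 higher at 42 °C (median 0.39). Of all genes 35.7% were called lower at 44 °C and 31.7% higher at 42 °C. Actg1, cytoplasmic gamma-actin, stood at 683 and 715 CPM at 44 °C, at 3747 and 3481 CPM at 42 °C and at 2784 and 2707 CPM in the control, 5.17-fold higher at 42 °C (log2 difference 2.37, SE 0.05, adjusted p 9.7e-14). Myl9, a regulatory light chain of myosin, stood at 12.2 and 12.6 CPM, 73.6 and 69.7 CPM, and 60.5 and 63.2 CPM in that order. The 44 °C libraries were the ones that stood away from the control for both. Tagln (SM22), which bundles actin, stood at 91.2 and 101 CPM, 488 and 428 CPM, and 266 and 256 CPM, and the calponin Cnn2 at 116 and 119 CPM, 476 and 466 CPM, and 358 and 361 CPM. Actb, cytoplasmic beta-actin, stood at 1662 and 1649 CPM at 44 °C against 3469 and 3369 CPM at 42 °C, where it was level with the control (3606 and 3541 CPM).

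The promoters of Actg1 and Myl9 are shown for the CArG box, the site that SRF binds, which capitals mark. They are the 250 bases before the start (RefSeq, GRCm38.p6) and were chosen after their values were seen. Actg1 lies on the minus strand at chr11:120348496-120348745, with the match 90 bases before the start, and Myl9 on the plus strand at chr2:156775214-156775463, with the match 161 bases before it.

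Actg1: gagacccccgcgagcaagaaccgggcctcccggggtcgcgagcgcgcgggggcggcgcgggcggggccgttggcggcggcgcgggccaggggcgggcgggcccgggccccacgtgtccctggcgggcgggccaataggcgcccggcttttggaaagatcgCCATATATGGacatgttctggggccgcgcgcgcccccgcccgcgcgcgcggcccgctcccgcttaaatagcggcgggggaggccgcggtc
Myl9: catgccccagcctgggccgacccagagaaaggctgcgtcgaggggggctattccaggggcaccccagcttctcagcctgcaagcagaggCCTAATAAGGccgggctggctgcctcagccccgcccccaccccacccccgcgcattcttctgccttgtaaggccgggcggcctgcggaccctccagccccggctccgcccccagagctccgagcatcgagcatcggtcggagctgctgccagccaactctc

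A CArG box stood in the 250 bases before the start in 1.47% of all 32851 promoter windows (1.62% of genes, and 1.46% of genes tested). The same search found it in 7 of the 13 genes of the SRF list with a window (Actg1, Cnn2, Fhl2, Filip1l, Myl9, Srf and Vcl). The list is of genes known as SRF targets, so that this share says nothing of the data.

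Genes of TGF-beta signalling and of the ID proteins leaned the same way. Of 17 tested 11 were higher and 4 lower at 42 °C (10 and 5 with totals and on TPM), with a median of 0.94. The shares over all genes were 37.9% and 37.2% with TMM. Ctgf, a matricellular growth factor, lay on opposite sides of the control, at 18.4 and 16.9 CPM at 44 °C, 149 and 137 CPM at 42 °C and 56.8 and 48.7 CPM in the control. It was 8.08-fold higher at 42 °C (log2 difference 3.01, SE 0.07, adjusted p 3.8e-13). Its relative Cyr61 fell at 44 °C alone, to 36.6 and 41.0 CPM against 224 and 199 CPM in the control, and stood at 251 and 256 CPM at 42 °C. Id2, an inhibitor of differentiation factors, stood at 13.7 and 12.9 CPM at 44 °C and 41.7 and 42.3 CPM at 42 °C, and Ltbp2, a matrix protein of elastic fibres, at 29.6 and 31.3 CPM and 114 and 110.1 CPM.

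Immediate early genes, which respond to signals within minutes, were mostly higher after the long treatment. Of 32 tested 24 were higher and 4 lower at 42 °C (20 and 5 with totals and on TPM), 13 and 2 past 2-fold, with a median of 0.83. Over all genes the shares were 37.9% and 37.2% with TMM, and 5.08% and 9.95% past 2-fold. Jun, a subunit of AP-1, stood at 82.0 and 86.7 CPM at 44 °C, at 393 and 413 CPM at 42 °C and at 116 and 116 CPM in the control, 4.78-fold higher at 42 °C. Myc, the growth regulator, stood at 34.1 and 38.8 CPM, 164 and 165 CPM, and 68.8 and 60.6 CPM in that order, and Gadd45g at 20.6 and 21 CPM, 119 and 126 CPM, and 27.9 and 31.4 CPM. Each had fallen below the control at 44 °C, by a called log2 difference of -0.46 (Jun), -0.83 (Myc) and -0.51 (Gadd45g), and stood above it at 42 °C. Egr3 fell at 44 °C too, to 2.96 and 3.56 CPM against 11.4 and 11.3 CPM, and stood at 12.7 and 16.2 CPM at 42 °C. Of 21 tested cytokines, chemokines and feedback genes of NF-kB 14 were higher and 2 lower at 42 °C (11 and 3 with totals, 11 and 7 on TPM), with a median of 0.52. Tnfaip3 (A20), which shuts NF-kB down, stood at 14.6 and 16.6 CPM at 44 °C, 104 and 95.9 CPM at 42 °C and 21.3 and 20.4 CPM in the control. The monocyte chemokine Ccl2 stood at 42.3 and 41.8 CPM, 173 and 170.2 CPM, and 79.9 and 81.4 CPM, and Ccl7 at 20.4 and 18.5 CPM, 85.7 and 85.2 CPM, and 33.0 and 29.6 CPM. Cxcl5, a chemokine for neutrophils, instead stayed below the control at 42 °C (131 and 129 CPM against 162 and 158 CPM), with 42.0 and 38.4 CPM at 44 °C.

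Cholesterol synthesis, the pathway that the factor SREBP2 drives, was lower at 44 °C, with smaller differences from the control in both directions at 42 °C. Of 24 genes 22 were higher and 0 lower at 42 °C (22 and 2 with totals and on TPM), 10 at least 2-fold, with a median of 0.92. The median against the control was -0.84 at 44 °C, where 23 were called lower, and 0.06 at 42 °C, where 8 were called higher and 4 lower. Of all genes 35.7% were called lower at 44 °C, and 31.7% higher and 31.9% lower at 42 °C. Nsdhl, which removes a methyl group from a sterol precursor, stood at 10.4 and 10.4 CPM at 44 °C, at 57.6 and 55.5 CPM at 42 °C and at 65.2 and 67.2 CPM in the control, 5.43-fold higher at 42 °C (log2 difference 2.44, SE 0.06, adjusted p 4.4e-13). Mvk, mevalonate kinase, stood at 16.7 and 16.1 CPM, 54.3 and 54.0 CPM, and 50.9 and 51.9 CPM in that order, and Fdps, farnesyl diphosphate synthase, at 136 and 130.0 CPM, 351 and 349.7 CPM, and 356 and 376 CPM. For both the 42 °C libraries differed from the control by no called amount.

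**Figure D4:**
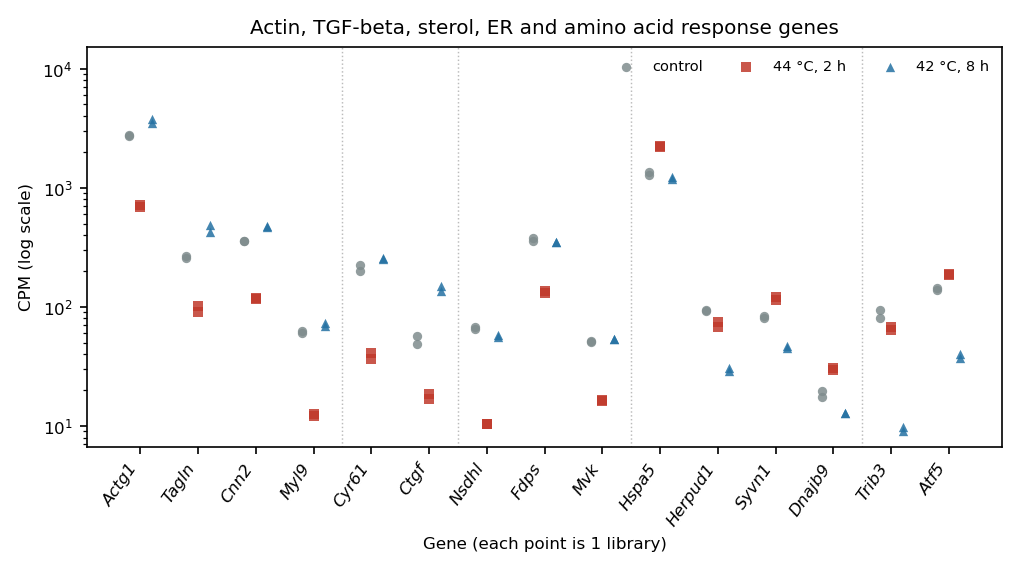
CPM (y axis, log scale) of genes of SRF and actin, of TGF-beta signalling, of sterol synthesis, of the ER and of the amino acid response, parted by dotted lines (x axis), in the 6 heat libraries. Grey circles are the control, red squares 44 °C for 2 h and blue triangles 42 °C for 8 h, 1 point per library. Actin and sterol genes have red squares well below the rest (Actg1 at 683 and 715 CPM), while Trib3 and Atf5 have blue triangles alone far below (Trib3 at 9.75 and 9.10 CPM).

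The plot of these levels by library shows which treatment stood apart from the control in each group of genes. The plot of list members adds the spread within lists: CCT and cytosolic ribosomal protein genes form compact clouds on the 42 °C side, SRF genes spread from 0.42 to 2.71 and sterol genes from -0.08 to 2.44, and the HSP70 and integrated stress response lists reach far to both sides.

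**Figure D5:**
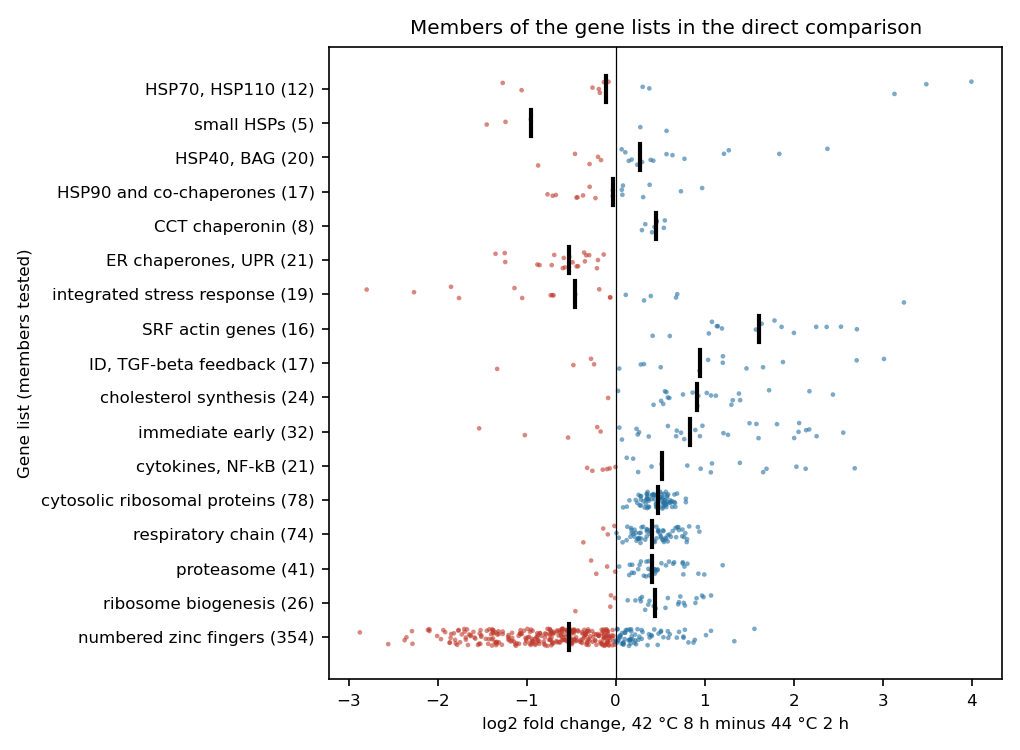
Log2 fold change of 42 °C for 8 h minus 44 °C for 2 h (x axis) of each tested member of 17 gene lists (y axis, members tested in brackets). Blue points are above 0 and red points below, whether called or not, the vertical spread within a list is arbitrary, and black bars are medians. Medians run from -0.95 (small heat shock proteins) to 1.61 (SRF actin genes).

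Genes of the growth machinery were higher at 42 °C by modest amounts. Of 78 cytosolic ribosomal proteins 77 were higher and 0 lower (69 and 1 with totals, 59 and 2 on TPM), with a median of 0.48, and none past 2-fold. Against the control their median was -0.12 at 44 °C and 0.35 at 42 °C. Rpl3 stood at 634 and 639 CPM at 44 °C, at 1133 and 1064 CPM at 42 °C and at 869.5 and 858 CPM in the control. Of 26 tested genes of ribosome biogenesis 22 were higher and 1 lower (19 and 4, and 15 and 5), with a median of 0.44. Fbl, the methyltransferase fibrillarin of the nucleolus, stood at 71.4 and 74.0 CPM against 148 and 139.6 CPM. Nuclear genes of the respiratory chain were higher for 66 of 74 and lower for 1 (49 and 6, and 43 and 8), with a median of 0.41. At 44 °C 57 of them were called lower than the control, against 35.7% of all genes. All 13 mRNAs of the mitochondrial genome were higher (11 with totals, 9 on TPM), with a median of 0.50. ND2 stood at 1300.0 and 1568 CPM at 44 °C and 2395 and 2470.5 CPM at 42 °C, and the control varied, at 1309 and 1029 CPM. Mitochondrial ribosomal proteins were less uniform, with 46 of 78 higher and 7 lower at a median of 0.24. There were 31 and 22 with totals, and 28 and 29 on TPM. The median on TPM was -0.022, or 0.18 relative to the median of all genes.

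Of 43 genes of DNA replication 15 were higher and 25 lower at 42 °C (7 and 28 with totals, 6 and 29 on TPM), with a median of -0.18 and none past 2-fold. Over all genes 37.9% were called higher and 37.2% lower with TMM. Cdc6, which loads the replicative helicase, stood at 129 and 131 CPM at 44 °C, 76.8 and 73.6 CPM at 42 °C and 62.8 and 64.4 CPM in the control. Of 40 mitotic genes 24 were higher and 6 lower, with a median of 0.16. It was -0.025 with totals (15 and 15) and -0.061 on TPM (10 and 18). Relative to the median of all genes these were 0.16 and 0.14. Ccnb2, a mitotic cyclin, stood at 49.6 and 44.9 CPM at 44 °C against 115 and 112 CPM at 42 °C and 123 and 126 CPM in the control. Of 68 replication-dependent histone genes, whose mRNAs end in a stem-loop and largely escape polyA selection, 41 passed the filter on low counts, 4 of them higher and 17 lower (3 and 18, and 3 and 20), with a median of -0.45. Hist2h2be, a histone gene that can also make polyadenylated mRNA, stood at 11 and 12.3 CPM at 44 °C, 1.80 and 1.90 CPM at 42 °C and 3.03 and 3.34 CPM in the control. The linker histone gene Hist1h1c went the other way, at 2.80 and 2.81 CPM against 9.95 and 8.99 CPM.

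Numbered zinc finger genes, mostly KRAB repressors of transposable elements, were lower at 42 °C. Of 354 tested (395 listed) 37 were higher and 237 lower (24 and 282 with totals, 18 and 280 on TPM), 4 and 94 past 2-fold, with a median of -0.53. The shares over all genes were 37.9% and 37.2% with TMM, and 5.08% and 9.95% past 2-fold. Their median against the control was 0.26 at 44 °C and -0.27 at 42 °C. Zfp85 stood at 3.89 and 4.26 CPM at 44 °C, 0.543 and 0.564 CPM at 42 °C and 3.74 and 3.63 CPM in the control, and Zfp54 at 7.65 and 7.44 CPM, 1.12 and 1.90 CPM, and 4.50 and 3.66 CPM. These genes resemble each other in sequence, so reads may be divided between them with error.

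Where the average over the libraries reached 3 on the log2 CPM scale, the 10 largest differences toward 44 °C included genes of cilia. Ttc30b, a part of the transport machinery inside cilia, stood at 16.1 and 15.6 CPM at 44 °C, 1.52 and 1.97 CPM at 42 °C and 11.6 and 11 CPM in the control, and its near copy Ttc30a1 at 15.3 and 16.2 CPM, 2.40 and 2.68 CPM, and 8.59 and 7.84 CPM. Bbs10, a chaperonin-like protein of Bardet-Biedl syndrome, stood at 16 and 14.6 CPM, 2.57 and 2.33 CPM, and 6.20 and 5.59 CPM. No enrichment of cilia genes was tested. Dnm3os, the RNA host of miRNAs within an intron of Dnm3, was the largest of the 10, at 40.3 and 37.8 CPM at 44 °C, 2.95 and 3.56 CPM at 42 °C and 74.5 and 61.9 CPM in the control. It was 12.1-fold lower at 42 °C (log2 difference -3.60, SE 0.12, adjusted p 7.3e-12) and is antisense to Dnm3, so without a stated strand setting its reads cannot be told apart from those of its partner. Clu, clusterin, a chaperone outside cells, was 7.25-fold higher at 44 °C, where it stood at 42.1 and 45.9 CPM, against 5.61 and 6.59 CPM at 42 °C and 4.0 and 4.42 CPM in the control. Kifc2, a kinesin, stood at 18.4 and 22 CPM, 2.35 and 2.43 CPM, and 4.94 and 6.27 CPM in that order, so that the treatments lay on opposite sides of the control. Lcmt2, a tRNA-modifying enzyme, and Bmf, a pro-apoptotic member of the BCL2 family, were far below the control at 42 °C alone, at 2.03 and 1.94 CPM against 10.1 and 10.1 CPM, and at 4.83 and 4.90 CPM against 20.4 and 23.6 CPM. Snhg20, a host of small nucleolar RNA, rose at 44 °C alone, to 17.8 and 21.5 CPM against 3.88 and 4.69 CPM. Trib3, described above, completes these 10.

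The 10 largest differences toward 42 °C held Hspa1a, Hspa1b, Atf3 and Ctgf, described above. Phlda1, a regulator of growth factor signalling, stood at 32.6 and 37.2 CPM at 44 °C, 302 and 315 CPM at 42 °C and 26 and 26.7 CPM in the control, 8.83-fold higher at 42 °C (log2 difference 3.14, SE 0.06, adjusted p 7.8e-14). Gjb2, a gap junction protein, had fallen at 44 °C alone, to 15.7 and 20.9 CPM against 133 and 111 CPM in the control, and stood at 229 and 202 CPM at 42 °C. Fam150a, a ligand of the receptors ALK and LTK, lay on opposite sides of the control, with 1.10 and 0.811 CPM at 44 °C, 19.7 and 16.8 CPM at 42 °C and 6.36 and 5.99 CPM in the control. The remaining 3 were RNAs that RNA polymerase III makes without a polyA tail. Rpph1, the RNA of RNase P, stood at 3.26 and 4.37 CPM, 73.2 and 72.8 CPM, and 0.322 and 0.597 CPM. Rmrp, the RNA of RNase MRP, stood at 1.40 and 1.68 CPM, 28.8 and 28.1 CPM, and 0.0459 and 0.136 CPM. Rn7sk, the 7SK RNA that restrains P-TEFb, stood at 3.12 and 3.68 CPM, 48.9 and 52.0 CPM, and 0.850 and 0.787 CPM. For each of the 3 both 42 °C libraries were high and both 44 °C libraries lay between them and the control. Rn7s1 and Rn7s2, which had the same counts as each other in every library, stood at 10.2 and 9.59 CPM, 26.1 and 25.1 CPM, and 7.79 and 3.8 CPM. These libraries were selected for polyA, so a level of such RNA depends on how the selection went, and its part in the difference was not tested. The nuclear RNAs Neat1 and Malat1 were higher at 44 °C than at 42 °C. Neat1 stood at 509 and 717 CPM against 347 and 389 CPM, below the control in both treatments (898 and 833 CPM). Malat1 stood at 638 and 549 CPM against 416 and 417 CPM (control 443 and 353 CPM).

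Genes of RNA processing leaned toward 42 °C in part. Of 32 tested SR proteins and hnRNPs 24 were higher and 1 lower (17 and 8 with totals, 16 and 8 on TPM), with a median of 0.28. Hnrnpd (AUF1), which binds AU-rich elements, stood at 79.3 and 82.6 CPM at 44 °C, 268 and 271 CPM at 42 °C and 218 and 223 CPM in the control, and Hnrnpa1 at 528 and 534 CPM, 1094 and 1106 CPM, and 764 and 772 CPM. Of 7 CLK and related kinases, which phosphorylate SR proteins, 3 were higher and 4 lower (1 and 4, and 1 and 5). Clk1, known to be spliced after stress, stood at 85.2 and 88.3 CPM at 44 °C, 38.8 and 40.6 CPM at 42 °C and 63.8 and 58.9 CPM in the control. Of 25 genes of cleavage, polyadenylation and termination 10 were higher and 9 lower (7 and 13, and 6 and 16). The torpedo exonuclease Xrn2 stood at 93.1 and 90.7 CPM at 44 °C against 183 and 178 CPM at 42 °C (control 156 and 153 CPM), while Clp1, an RNA kinase of the cleavage machinery, stood at 23.8 and 21.4 CPM against 5.61 and 5.82 CPM (control 16.6 and 15.5 CPM).

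The remaining lists split between the treatments with TMM, where 37.9% of all genes were called higher and 37.2% lower. Collagens had 13 higher and 12 lower of 30 tested (9 and 15 with totals, 9 and 16 on TPM), and Col12a1 stood at 223 and 188 CPM at 44 °C against 494 and 463 CPM at 42 °C, whereas Col3a1 stood at 1274 and 1235 CPM against 605 and 681 CPM. Matrix metalloproteinases, ADAMTS proteases and TIMPs had 12 and 12 of 29 (11 and 14, and 8 and 13), and Mmp19, a matrix protease, was 69.6 and 66.4 CPM against 19 and 19.5 CPM. Tubulins had 6 and 6 of 14 (6 and 6, and 5 and 6), glycolytic genes 8 and 6 of 18 (4 and 10, and 1 and 11) and clock genes 6 and 5 of 17 (5 and 8, and 5 and 10). Slc2a1, the glucose transporter GLUT1, stood at 169 and 166 CPM at 44 °C and 70.5 and 70.2 CPM at 42 °C, with the control between them (117 and 126 CPM). The clock gene Per1 stood at 31.3 and 34.2 CPM against 19.1 and 18.4 CPM and its relative Per2 at 8.33 and 7.79 CPM against 14 and 15.4 CPM. The cold-inducible RNA-binding protein Rbm3 was low at 44 °C alone, at 145 and 173 CPM against 481 and 463 CPM at 42 °C and 485 and 454 CPM in the control. Its relative Cirbp was 13.8 and 14.4 CPM against 11.3 and 10.7 CPM.

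The authors' true or false calls of transcription past gene ends were set beside these differences. A DoG (downstream-of-gene transcript) is RNA made when transcription runs on past the end of a gene, and a read-in call marks such transcription that reaches the next gene. Of 6399 pairs of neighbouring genes, DoGs were called in 2095 and 2094 at 44 °C, 2049 and 1949 at 42 °C, and 1785 and 1693 in the control. Read-in was called in 95 and 112 pairs at 44 °C, 83 and 84 at 42 °C, and 48 and 45 in the control. With 2 libraries against 2 an exact test cannot pass 0.05, so these are counts with no test. In both libraries of a group read-in was called for 78 pairs at 44 °C and 60 at 42 °C, of which 46 were the same pairs; 14 were called in both 44 °C libraries and in neither at 42 °C, and 8 the reverse. The downstream gene of a read-in call in any of the 4 libraries made up 151 (1.18%) of the genes tested, 4 (0.618%) of the 647 at least 2-fold higher at 42 °C and 14 (1.10%) of the 1268 higher at 44 °C. Only the downstream gene of a pair could carry a call, which was 4852 of the genes tested, 242 of the 647 and 492 of the 1268. The share among genes higher at 44 °C was near that of all genes tested, and the share at 42 °C rests on 4 genes. Hspa1b is among the 4, since read-in from Hspa1a was called in both 42 °C libraries and in neither at 44 °C. Col20a1 is among the 14, since read-in from Arfgap1 was called in both 44 °C libraries and in neither at 42 °C (20.8 and 23.7 CPM against 5.98 and 6.06 CPM, control 5.93 and 6.59 CPM). The histone gene Hist2h2be is another of the 14, with read-in from Hist2h2ab called in 1 of the 44 °C libraries and in neither at 42 °C.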

How the data were processed

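The RNA files hold expected counts per gene, which the authors made from polyA-selected libraries (NEB E7760 kit, per the labels). Per the submitters' processing notes STAR, RSEM and Bowtie were used with mm10, without versions or roles, and no gene annotation or strand setting is named. These expected counts were rounded to whole numbers before the fit. The authors' deposited TPM values (per transcript length) and their true or false calls of DoGs and read-in were also used. 12 columns of the footprint tables matched no sample label and were not used.

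Of 20430 genes 12747 passed edgeR's filterByExpr. All 6 heat RNA libraries entered 1 fit (edgeR 4.0.16, R 4.3.3, TMM, quasi-likelihood test, Benjamini-Hochberg adjustment over 12747 genes, threshold 0.05), since a shared spread rests on more libraries. SE is the log2 difference divided by the square root of the F statistic. Tested on simulated counts with 200 changed genes, the direct contrast recovered 77.3%, 85.1% and 97.0% of changes of 0.5, 1 and 2 on the log2 scale, and 7.49% of its 187 calls were false. The simulation gave 44 °C and the control the same means. In the data 75.1% of the genes were called, far more than were changed there, so these rates need not carry over. Gene symbols matched the RefSeq table (GRCm38.p6) for 19885 of 20430. Promoter motifs were searched on both strands of the 250 bases before the start.

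Members and lists were chosen with earlier results of these data known. The naming rule took the 10 largest called differences each way, at an average log2 CPM of at least 3, without overlap between treatments. It also took up to 4 genes per class and direction, and up to 4 per list (all of lists up to 8). Hspa8, Hsph1, Hspd1, Ddit3, Atf4, Actb and Dcn are beyond this rule and were chosen after their values were seen. DESeq2 1.42.0, limma 3.58.1 on log2(TPM + 1), other scalings, filters and fold thresholds, a replicate block and leaving out each library were the alternatives. Same-numbered replicates did not deviate together (correlations of -0.025, 0.0027 and 0.12), so the numbers were not taken to pair samples. A few genes that the rule picks are not reported here. No explanation was tested.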

Additional observations from a re-analysis of the deposited data

Results flagged for a closer look

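For 9 of the genes named, the treatments lay at least 2-fold from the control on opposite sides, each with a called difference. Each call is against no difference, so the 2-fold distance is an estimate. Tested against 2-fold with glmTreat, Fam150a, Ctgf and Cdc42ep3 alone had an adjusted p under 0.05 on both sides of the control. The direct comparison is the test of the difference between the treatments. Each value below is the log2 difference of 42 °C for 8 h minus 44 °C for 2 h, with an edgeR adjusted p under 0.05. Higher at 42 °C were Fam150a (4.25), Ctgf (3.01), Cdc42ep3 (2.50) and Sdpr (2.36). Cdc42ep3, an effector of the GTPase CDC42 that shapes the cytoskeleton, stood at 8.33 and 8.05 CPM at 44 °C, 46.5 and 46.4 CPM at 42 °C and 20.3 and 19.7 CPM in the control. Sdpr, the caveolar protein cavin-2, stood at 45.4 and 45.0 CPM, 250.5 and 213 CPM, and 101 and 95.8 CPM in that order. Higher at 44 °C were Kifc2 (-3.08), Bbs10 (-2.63), Slc25a42 (-2.40), Zswim3 (-2.38) and Zfp3 (-2.37). Slc25a42, a mitochondrial carrier of coenzyme A, stood at 15.6 and 16.3 CPM at 44 °C, 3.46 and 2.50 CPM at 42 °C and 6.11 and 7.05 CPM in the control. The zinc finger genes Zswim3 and Zfp3 stood at 17.1 and 17.1 CPM and at 7.45 and 8.28 CPM at 44 °C, against 3.32 and 3.24 CPM and 1.43 and 1.62 CPM at 42 °C. In all 9 the libraries of the treatments did not overlap, but the genes were picked for large called differences, so this adds no support. Groups of 2 are too small for a check of single libraries.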

How the results depend on the processing

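Depth was 30452066 to 42698179 counts, so the genes whose groups held near 0 counts are the least certain. Against 9572 genes called and 1915 at least 2-fold, the replicate block gave 9709 and 1902, and changed no call of these counts by over 1.5 times. Leaving out each library gave 8641 to 9521 called genes and 1785 to 1951 at least 2-fold. The class that left the control the same way in both treatments held 77 genes and 51 to 69 without 1 library, lowest without 44 °C replicate 2. DESeq2 put 45 in it.

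On log2(TPM + 1) with limma 2764 genes were higher at 42 °C, and 1245 were at least 2-fold, 221 of them higher. Of the classes 318 had left the control at 44 °C alone, 272 at 42 °C alone, 14 both the same way and 9 both opposite ways. Of the 1915 genes 971 were shared. The pseudocount shrinks differences of low genes by construction. glmTreat against 2-fold left 995 genes (351 higher, 644 lower). A log2 threshold of 0.58 gave 4233 (1810 and 2423). The same threshold against the control put 129 both the same way, 239 opposite and 89 in neither, and no fold threshold put 289 at 42 °C alone, 212 both the same way, 746 opposite and 62 in neither.

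Of the 27 lists with a median of at least 0.1 in size, 3 of 378 values under the alternatives changed sign: mitochondrial ribosomal proteins turned to -0.022 on TPM, and mitotic genes to -0.025 with library totals and -0.061 on TPM. Relative to the median of all genes these 3 values stayed positive, at 0.18, 0.16 and 0.14. Medians of the 10 lists under 0.1 changed sign in 23 of 140 values. Of the named genes, 13 values of 7 genes changed sign where a call was involved: with totals and on TPM Dyrk1a (-0.050, -0.098), Gclm (-0.0099, -0.076), Hsf2 (-0.18, -0.23), Nqo1 (-0.011, -0.076), Srpk2 (-0.081, -0.19) and Srxn1 (-0.023, -0.088), and on TPM Txnrd1 (-0.043). The median of all genes itself stood at -0.18 with totals and -0.20 on TPM. Beside them 2634 values kept their call, 30 lost it and 9 gained it. The cause of the other changes was not tested.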

Other observations

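Several Serpinb9 genes, granzyme-inhibiting serpins that lie together and resemble each other so that reads may be divided with error, were seen at 44 °C and hardly elsewhere. Serpinb9g stood at 2.77 and 2.95 CPM at 44 °C, 0.0858 and 0.0705 CPM at 42 °C and 0.138 and 0.136 CPM in the control, and Serpinb9c at 0.904 and 0.898 CPM, 0.0286 and 0 CPM, and 0.0689 and 0.0814 CPM. Serpinb9d and Serpinb9f had 0 counts in all 4 libraries at 42 °C and in the control, with 0.384 and 0.348 CPM and 0.384 and 0.608 CPM at 44 °C. Cpn1, a subunit of a plasma carboxypeptidase, stood at 2.58 and 3.21 CPM at 44 °C and at 0.0286 and 0.0705 CPM at 42 °C, with 0 in the control. These genes were chosen after their values were seen.

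Some rows are not separate genes or rest on single libraries. Ccn4 and Wisp1 are symbols of the same gene in separate rows. The Ccn4 row stood at 1.67 and 5.65 CPM at 44 °C and 28.7 and 20.4 CPM at 42 °C, and the Wisp1 row, which holds most of the reads, at 186 and 174 CPM and 217 and 227 CPM. Entpd4b was 0 at 44 °C and 0 and 13.1 CPM at 42 °C, so its call rests on 1 of the 2 libraries, and Qtrt2, at 0 and 5.04 CPM at 42 °C, did the same.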
